A study of Oryza sativa with 23 samples.

Results

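Leaf and root of unstressed Lachit, a rice (Oryza sativa) variety, were compared in 6 RNA sequencing libraries, 3 from leaf and 3 from root, out of 23 in the whole series. All 6 libraries that carry the labels Lachit, control and leaf or root were used. Lachit comes from the cross CRM 13-3241 × Kalinga 2. Plants were 11 days old and had stood for their last 2 days in the control nutrient solution, which holds 50 µM Fe as Fe sodium EDTA at pH 6.2, under 16 h of light and 8 h of darkness at 26 °C. Leaf means the L2 leaf and root means the whole root, and 100 mg of material went into an extraction. A further 6 control libraries of Hacha, a variety from the cross CRM 53 × IR 64, and 6 Lachit libraries from plants given 15 mM iron sulfate at pH 5.2 for the same 2 days are used below only to see where the organ difference of control Lachit differs or returns. Iron, sulfate and acidity change together in that last group, so their parts cannot be told apart. The labels do not say that the libraries of a group came from separate plants, so a p-value here speaks only of how far these samples scatter, and that scatter may be technical.

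Leaf and root carry out different work in a grass seedling. The leaf blade is built mainly of mesophyll cells with chloroplasts, which capture light and fix carbon, together with an epidermis bearing stomata and with vascular bundles. The root takes up water and mineral ions through its epidermis and cortex, limits free flow into the vascular cylinder at the endodermis, grows from a meristem at its tip, and lives on sugar sent down from the shoot. The nuclear genes of photosynthesis are known to supply a large part of the messenger RNA of a green leaf. The tables of this series identify genes by rice locus identifiers alone and do not pair them with gene names, so the genes below are given by identifier and chromosome, with no function. For the same reason the organ labels could not be checked against marker genes of mesophyll, endodermis or other cell types.

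The 6 libraries held between 23724503 and 28138648 estimated counts over 35679 genes. Replicates were close, with a Pearson correlation of log2 CPM across genes of 0.991 to 0.993 between leaf libraries and 0.984 to 0.99 between root libraries. CPM are estimated counts relative to library size, scaled for composition by TMM. Control Hacha and iron-treated Lachit were scaled apart from control Lachit. Their CPM are thus not on exactly the same scale, and small differences between these groups are not to be read. The biological coefficient of variation, the spread of a gene between replicates beyond counting error, was 11.6% in leaf and 17% in root.

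The organs differed in most genes that could be tested. Of 25909 genes tested, 9582 were higher in leaf (37.0%) and 10498 were lower in leaf, that is higher in root (40.5%), with edgeR's quasi-likelihood test and a limit of 0.05 on the Benjamini-Hochberg adjusted p. Both directions together made up 77.5% of the genes tested, 5829 tested genes were not called, and 9770 genes had too few counts to be tested, 3132 of them with no count in any of the 6 libraries. Most called genes differed at least 2-fold, 6576 toward leaf and 7268 toward root. Differences of at least 8-fold were fitted for 3025 genes toward leaf and 3404 toward root, and differences of at least 64-fold for 1188 and 1313. The 3 leaf libraries all lay above the 3 root libraries for 10140 genes (39.1%), and all lay below them for 10966 genes (42.3%). In bulk organs, fewer cells of a type and less RNA per cell cannot be told apart, and these differences may hold either or both.

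The near balance of the directions belongs to the TMM scale. TMM placed the median log2 leaf over root at -0.06, and 47.7% of the called genes were then higher in leaf. Scaled by library totals alone, the median moved to -0.68 and the calls became 6322 higher and 15021 lower in leaf, so that 29.6% of them were higher in leaf. Every difference below in CPM or log2 is therefore relative to the typical gene on the TMM scale, unless another scale is named. It says nothing of RNA per organ. The median size of the log2 difference over all tested genes was 1.15, and the middle 50% lay between -1.25 and 1.04. The 12 chromosomes gave similar shares, 35.3% to 38.2% of tested genes higher in leaf and 37.8% to 43.0% lower.

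**Figure D1:**
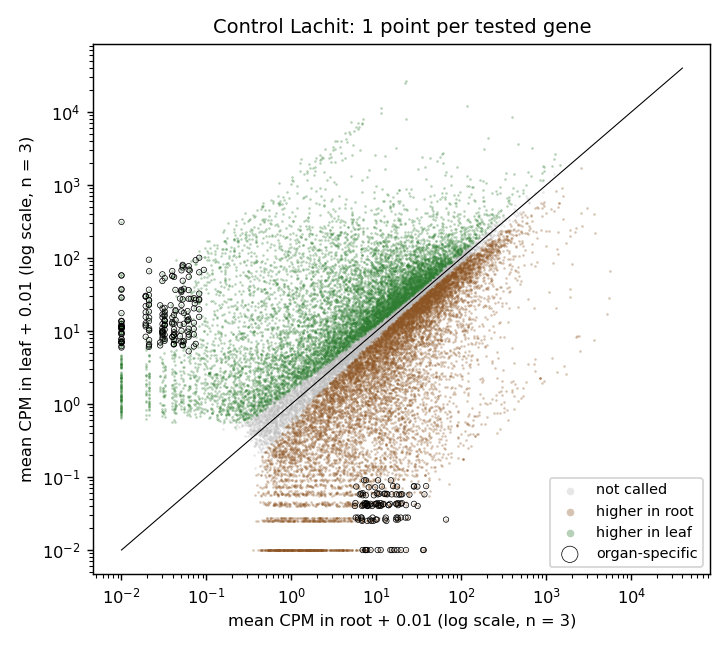
Mean CPM in leaf (vertical) against mean CPM in root (horizontal), both plus 0.01 on log scales, for the 25909 genes tested in control Lachit, n = 3 libraries per organ. Green points are the 9582 genes higher in leaf, brown points the 10498 higher in root, grey points those not called, and rings mark the 181 leaf-specific and 114 root-specific genes. A narrow band of abundant leaf genes runs parallel to the diagonal at the upper edge.

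Leaf RNA was concentrated in fewer genes than root RNA. The 20 most abundant genes of each library held 14.0%, 14.6% and 15.2% of the estimated counts in the 3 leaf libraries and 7.2%, 8.17% and 7.14% in the 3 root libraries. The leaf libraries all lay above the root libraries, with means of 14.6% ± 0.6 and 7.50% ± 0.58 (SD, n = 3 each). It took 741, 690 and 628 genes to reach 50% of the counts in leaf, and 1486, 1379 and 1384 in root. The root libraries thus spread the same share over more genes in every library. Roots also had more genes at 1 TPM or above, 22310 ± 140 against 19760 ± 160 in leaf (SD, n = 3 each). TPM are levels relative to the whole library that are corrected for transcript length, so these numbers of genes are not on the TMM scale. An exact two-sided permutation test gave p = 0.1 for each of these 3 measures, which is the smallest value that 3 against 3 libraries allow. Control Hacha showed the same order, with 14.2% ± 1.8 of the counts in the top 20 genes of leaf and 6.60% ± 0.5 in those of root (SD, n = 3 each).

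**Figure D2:**
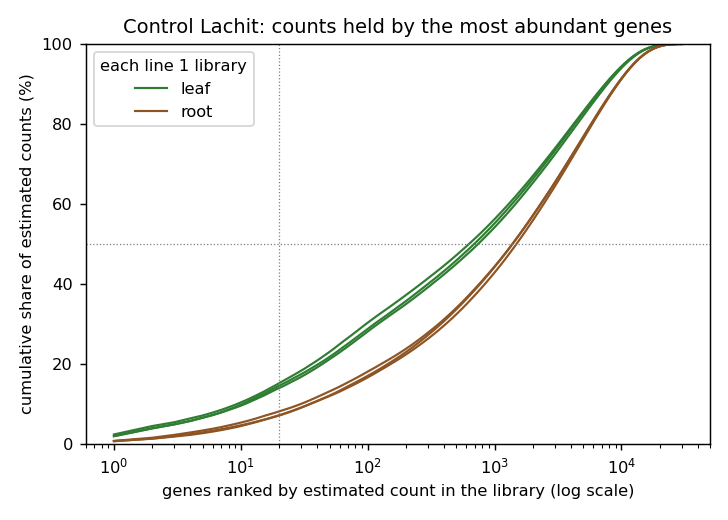
Cumulative share of estimated counts (%, vertical) held by genes ranked from the most abundant (horizontal, log scale), 1 line for each of the 3 leaf (green) and 3 root (brown) libraries of control Lachit. Dotted lines mark 20 genes and 50% of the counts, which leaf libraries reach with 628 to 741 genes and root libraries with 1379 to 1486.

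At 1 TPM or more in every library of an organ, 16910 genes were found in both organs, 1506 in leaf with all root libraries below that level, and 3471 in root with all leaf libraries below it. Another 10474 genes were below it in all 6 libraries and 3318 were mixed between replicates. By this measure most genes present in either organ were present in both. These classes are not on the TMM scale. Over the 26304 genes with a group mean of at least 0.5 TPM, the median leaf minus root difference of log2(TPM + 1) was -0.59. A typical gene thus lies lower in leaf in TPM, and the larger root class is to be read with that.

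No gene was among the 20 most abundant of both organs. All 20 top genes of leaf were called higher in leaf and all 20 of root were called higher in root, where 37.0% and 40.5% of all tested genes were; since abundance in an organ chose them, nothing is read from that difference. The leaf set was low in root. Its genes averaged 4470 to 26200 CPM in leaf and 4.26 to 398 CPM in root, with a median log2 leaf over root of 9.99. At least 64-fold was reached by 18 of them, and at least 8-fold by all 20. The root set was less sharply divided. Its genes averaged 1880 to 5610 CPM in root and 5.34 to 1720 CPM in leaf, with a median log2 root over leaf of 5.14 and a range of 0.58 to 8.93. Of these 20 genes 8 differed at least 64-fold and 17 at least 8-fold. In control Hacha all 20 genes of each set were called in the same direction, where 34.5% of all tested genes were higher in leaf and 40.8% lower. Such abundant genes pass the count filter through the organ where they are high, so these counts are no support for a direction. In these separate libraries 16 genes of each set were again among the 20 most abundant.

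By mean CPM the most abundant gene of the leaf was OS12G0274700 on chromosome 12, which had 23400, 24700 and 30600 CPM in the leaf libraries and 21.2, 20.6 and 24.9 CPM in the root libraries. Leaf and root did not overlap and differed by a log2 of 10.2 (SE 0.22, adjusted p = 1.25e-09). OS12G0291100, on the same chromosome, had almost the same profile, with 23700, 25100 and 26500 CPM in leaf and 20.8, 21.6 and 22.6 CPM in root, a log2 difference of 10.18 (SE 0.18, adjusted p = 9.54e-10). The order of these genes rests on the third leaf library, since OS12G0291100 was the higher in the first and the second. As kallisto divides reads between near-identical copies, these genes may not be independent measurements. Whether their sequences are alike was not tested. In leaf of control Hacha these genes averaged 20400 ± 4100 and 22800 ± 4500 CPM (SD, n = 3). In leaf of iron-treated Lachit they averaged 2080 ± 1100 and 2060 ± 980 CPM (SD, n = 3), below every control leaf library, and on the root side 8.09 and 7.77 CPM.

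By mean CPM the most abundant gene of the root was OS03G0401300 on chromosome 3, with 6030, 5830 and 4980 CPM in root and 64.8, 66.9 and 67.3 CPM in leaf. Its log2 leaf over root was -6.4 (SE 0.15, adjusted p = 1.58e-09), so a clear level remained in leaf. OS12G0571100 on chromosome 12 followed with 4450, 6310 and 5700 CPM in root and 18.6, 36.9 and 28.7 CPM in leaf (log2 -7.61, SE 0.31, adjusted p = 4.26e-08). The order at the top varied between root libraries: OS03G0401300 led in the first, while OS12G0568500, named here after its values were seen, led in the other two and averaged 5194 CPM in root and 17.2 CPM in leaf. Per length OS12G0571100, with a transcript of 546 bases, stood above OS03G0401300, at 19600 ± 2800 against 3390 ± 550 TPM in root (SD, n = 3). OS03G0401300 and OS12G0571100 parted in iron-treated Lachit roots, where they averaged 1040 ± 150 and 6840 ± 870 CPM (SD, n = 3). In control Hacha roots the averages were 4320 ± 850 and 6730 ± 950 CPM.

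Many abundant leaf genes had leaf to root ratios close to each other, with a long tail of smaller ratios. Of 118 genes called higher in leaf with at least 1000 CPM there, a limit chosen after the values were seen, 62 had a log2 difference between 9 and 11 and none lay above. Over all 118 these differences had quartiles of 4.61, 9.31 and 10.0, and 20 of the 118 differed less than 8-fold. The 43 root genes at that level had quartiles of 2.21, 3.33 and 7.01, with 1 between 9 and 11 and 15 genes below 8-fold. Few abundant genes of one organ were free of counts in the other. Of 2973 genes called higher in leaf with at least 50 CPM, 3 had no count in the root libraries and 53 had at most 10. Of 2256 such root genes, none had zero counts in leaf and 13 had at most 10. The origin of these low counts was not tested, so a few CPM of an abundant leaf gene in root are given as measured and not as expression by root cells.

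The widest differences were taken among the 2657 genes that were called, reached 100 CPM in the higher organ and did not overlap between organs. On the leaf side OS10G0533100 on chromosome 10 led, with 306, 268 and 362 CPM in the leaf libraries and no count in any root library. It was at least 9910-fold higher in leaf, a bound that sets the absent root counts to 3 over the group (adjusted p = 2.35e-08). The leaf level rests on 19052 counts, and the pattern returned in control Hacha, at 338 ± 63 CPM in leaf (SD, n = 3) with no count in root. In iron-treated Lachit it stood at 63.3 ± 34 CPM in leaf (SD, n = 3), again with no root count.

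OS09G0538000 on chromosome 9 had 312, 320 and 275 CPM in leaf and 0.111, 0.234 and 0.165 CPM in root (log2 10.78, SE 0.2, adjusted p = 9.54e-10). Leaf of Hacha held less of it, 42.1 ± 30 CPM against 0.449 ± 0.2 CPM in root (SD, n = 3). The organ difference was 4.19 greater in Lachit on the log2 scale, with an adjusted p of 0.0109 for the difference between the varieties.

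On the root side OS06G0169001 on chromosome 6 had 177, 230 and 456 CPM in root and 0.193, 0.181 and 0.962 CPM in leaf (log2 -9.39, SE 0.61, adjusted p = 1.35e-06). Root and leaf were far apart although the third root library was well above the other two. Roots of iron-treated Lachit held only 1.87 ± 1.7 CPM of OS06G0169001 (SD, n = 3), with libraries from 0.572 to 3.85, and leaf there had no count. The organs were still called different there (adjusted p = 0.00828 by the same edgeR test). OS10G0504900 on chromosome 10 had 314, 215 and 263 CPM in root and 0.29, 0.451 and 0.428 CPM in leaf (log2 -9.38, SE 0.24, adjusted p = 2.22e-09). For this gene the organ difference was not called in iron-treated Lachit, where leaf held 54 ± 48 CPM with libraries from 0.641 to 93.1, and root held 102 ± 26 CPM (SD, n = 3; log2 -0.91, adjusted p = 0.552). Control Hacha had 37.9 ± 29 CPM in root and 0.55 ± 0.15 CPM in leaf (SD, n = 3; log2 -6.13, adjusted p = 0.000409).

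**Figure D3:**
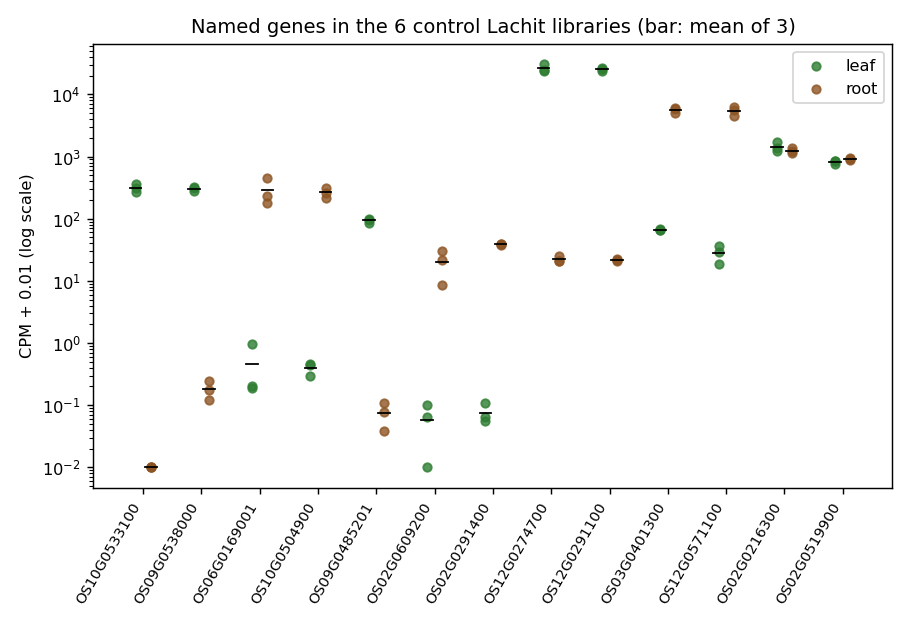
CPM plus 0.01 (vertical, log scale) of the 13 genes described for leaf against root in control Lachit, 1 point for each of the 3 leaf (green) and 3 root (brown) libraries, with bars at the means. The organs are apart in every library for the first 11 genes and for OS02G0519900, where the gap is small, and overlap for OS02G0216300. OS10G0533100 sits at the bottom in root because it has no count there.

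Organ-specific genes were set apart by level and not by a test. A gene was called leaf-specific when it had at least 5 CPM in every leaf library and at most 0.1 CPM in every root library, and root-specific by the reverse. These limits chose 181 leaf-specific genes, 0.507% of all 35679, and 114 root-specific genes, 0.32%. Most were modest in level. The leaf-specific genes had a median of 13.6 CPM in leaf, 2 of them reached 100 CPM, and together they made up 0.334%, 0.357% and 0.341% of the counts of the leaf libraries. The root-specific genes had a median of 10.7 CPM in root and a highest mean of 66.1 CPM, and made up 0.186%, 0.18% and 0.219% of the counts of the root libraries. No count at all was found in the other organ for 36 leaf-specific and 16 root-specific genes. The nearest genes inside and outside the limits stood at 5.02 and 4.98 CPM for leaf and at 5.02 and 4.99 CPM for root, so neither list has a natural edge. At the limit for the other organ, the nearest stood at 0.0993 and 0.1 CPM for the leaf list. For the root list they stood at 0.0967 and 0.107 CPM. Without the third leaf library the root-specific list grew from 114 to 233 genes.

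By mean TPM, OS09G0485201 on chromosome 9 was the highest of the leaf-specific genes, at 886 ± 78 TPM (SD, n = 3). Its only transcript is 246 bases long, and it had 99, 95.4 and 86.1 CPM in leaf and 0.0278, 0.0669 and 0.0993 CPM in root. Hacha leaf held 26.2 ± 6.5 CPM and leaf of iron-treated Lachit 87.8 ± 27 CPM (SD, n = 3). Root held 0.168 ± 0.18 CPM in Hacha and 0.114 ± 0.025 CPM in iron-treated Lachit (SD, n = 3). The highest root libraries there, at 0.376 and 0.135 CPM, were above the limit of 0.1 CPM. Next came OS10G0533100, described above, at 331 ± 48 TPM (SD, n = 3).

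Among root-specific genes OS02G0609200 on chromosome 2 was first by mean TPM, at 284 ± 160 TPM (SD, n = 3), and its libraries were uneven, with 30.2, 8.47 and 21.6 CPM in root and 0, 0.0903 and 0.0535 CPM in leaf. The leaf values rest on 3 counts, so the ratio of 426 is loose, from 145 to 2070 at 95% by counting error alone. Roots of Hacha held 0.47 ± 0.37 CPM and roots of iron-treated Lachit 1.01 ± 0.93 CPM (SD, n = 3), both below every control Lachit root library. OS02G0291400, also on chromosome 2, was steadier, with 39.3, 37.7 and 38.5 CPM in root and 0.0967, 0.0451 and 0.0535 CPM in leaf. Hacha held 27.9 ± 4.4 CPM of OS02G0291400 in root and 0.149 ± 0.035 CPM in leaf (SD, n = 3). Its Hacha leaf libraries ran from 0.109 to 0.175 CPM, so the limit of 0.1 CPM did not hold there. In iron-treated Lachit, root held 6.89 ± 2.0 CPM and leaf 0.0175 ± 0.03 CPM (SD, n = 3).

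The limits of the organ-specific genes often did not hold in libraries that had no part in choosing them. Of the 181 leaf-specific genes 164 passed the count filter in control Hacha, where 162 were called higher and 1 lower in leaf. Of the 114 root-specific genes 110 passed it there, and 109 were called lower and 1 higher in leaf. Genes like these pass the filter through the organ where they are high, so these counts are no support for a direction. The same level limits held in Hacha for 54 of the 181 leaf-specific genes (29.8%) and 31 of the 114 root-specific genes (27.2%). Hacha has 98 leaf-specific genes by these limits (0.275% of all genes), of which the 54 make up 55.1%. It has 120 root-specific genes (0.336%), of which the 31 make up 25.8%. Leaf-specific genes left the limits mostly through the root side: 94 exceeded 0.1 CPM in a Hacha root library, 59 fell under 5 CPM in a Hacha leaf library, and 26 of these did both. Of these genes, 2 stood at 5 CPM or more in every Hacha root library, and 8 had no count in Hacha leaf. Among root-specific genes, 61 exceeded 0.1 CPM in a Hacha leaf library, 33 fell under 5 CPM in a root library, and 11 did both.

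In iron-treated Lachit 167 of the 181 leaf-specific genes passed the filter, with the same reservation, and 166 were called higher and none lower in leaf. Of the 114 root-specific genes 93 passed it, and 91 were called lower and none higher in leaf. The level limits held for 24 leaf-specific genes (13.3%) and 15 root-specific genes (13.2%). By the same limits iron-treated Lachit has 62 leaf-specific genes (0.174% of all genes), of which the 24 make up 38.7%, and 73 root-specific genes (0.205%), of which the 15 make up 20.5%. Here the own organ was the more frequent reason, since 117 leaf-specific genes fell under 5 CPM in a leaf library and 68 root-specific genes did so in a root library.

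The lists also differed from the whole gene set in transcript number, length and position. The limits are in CPM, which is not corrected for length, so transcript length is not independent of them. Of leaf-specific genes 93.9% have a single annotated transcript, as do 98.2% of root-specific genes, compared with 85.3% of all genes and 73.5% of the 16955 genes with a mean of at least 5 CPM. Their longest transcripts had medians of 1245 bases in the leaf list and 1309 in the root list, against 1417 for all genes and 1660 for genes at 5 CPM. Neighbouring identifiers recurred: 23 of the 181 leaf-specific genes (12.7%) have a leaf-specific gene as the next or previous identifier, while 0.998% of all genes have a leaf-specific neighbour. The longest run was 3 genes on chromosome 3. In the root list 4 of 114 genes (3.51%) have such a neighbour, against 0.639% of all genes. Near-identical copies can sit side by side, and kallisto divides reads between copies, so these neighbours may not be independent. Over the chromosomes the leaf-specific share ran from 0.308% on chromosome 11 to 0.702% on chromosome 9, and the root-specific share from 0.0977% on chromosome 12, which is 2 genes, to 0.484% on chromosome 11.

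Genes of similar level in both organs were sought with an interval and not with a missed test. The 95% interval of the leaf over root difference lay within 1.5-fold on either side for 3650 genes, 14.1% of those tested. They were more abundant than most, with a median of 26.4 CPM against 11.2 CPM for all tested genes. Among them were 363 called higher and 356 called lower in leaf, since a small difference can be precise. A further 2898 genes were neither called nor shown to be similar. In Hacha 3105 genes met the same rule (12.0%), and the 1923 genes on both lists are 52.7% of the Lachit list and 61.9% of the Hacha list.

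The most abundant similar gene was OS02G0216300 on chromosome 2, with 1710, 1230 and 1370 CPM in leaf and 1350, 1130 and 1220 CPM in root. The organs overlapped, at a log2 of 0.22 (95% interval -0.11 to 0.56, adjusted p = 0.195), but with library totals the value turned to -0.4 and was called (adjusted p = 0.0384). OS02G0519900, also on chromosome 2, had 836, 859 and 748 CPM in leaf and 938, 920 and 880 CPM in root, at a log2 of -0.16 (95% interval -0.41 to 0.08, adjusted p = 0.19). The latter reached -0.79 with library totals. With all 23 libraries in the fit, still on TMM, OS02G0519900 was called lower in leaf at -0.36 (adjusted p = 0.036 by edgeR's test). Similarity of level in these genes thus depends on the scale and on the libraries fitted. In control Hacha OS02G0216300 held 263 ± 10 CPM in leaf and 192 ± 9.8 CPM in root (SD, n = 3). There it was called higher in leaf (log2 0.46, adjusted p = 0.0039), while OS02G0519900 was not called (log2 -0.38, adjusted p = 0.0515).

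The organ difference of Lachit returned for most genes in control Hacha, with which it shares no library. In Hacha 8921 genes were higher in leaf (34.5%) and 10546 lower (40.8%) of 25850 tested, 75.3% in all. Across the 24590 genes tested in both varieties, the log2 differences had a Pearson r of 0.92 and a Spearman rho of 0.9, a description across genes, which are not independent replicates. Of 9063 genes higher in Lachit leaf, 7270 were called higher in Hacha leaf (80.2%), 271 were called lower and 1522 were not called. Of 10046 genes lower in Lachit leaf, 8507 were called lower in Hacha (84.7%), 143 higher and 1396 not. Of the 3025 leaf and 3404 root genes at 8-fold or more in Lachit, 2762 and 3141 were also tested in Hacha. There 2666 of the leaf genes and 3010 of the root genes were called the same way, and 15 and 16 the opposite way. Genes with wide differences pass the count filter through the organ where they are high, so these counts are no support for a direction.

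In Lachit under excess iron fewer genes differed between the organs. Of 25413 genes tested, 6441 were higher in leaf (25.3%) and 6460 lower (25.4%), 50.8% in all, and the biological coefficient of variation was 32.1%, compared with 15.3% in the control libraries. The median size of the log2 difference was 0.866, below the 1.15 of control plants. Of 9174 genes higher in control leaf and tested under iron, 5204 were called higher again (56.7%), 373 lower and 3597 were not called. Of 9543 genes lower in control leaf, 5006 were called lower again (52.5%), 333 higher and 4204 were not. Of genes at 8-fold or more in control plants and tested under iron, 2548 of 2737 leaf genes were called the same way. So were 2204 of 2650 root genes. These counts carry the reservation given for Hacha. The difference between treatments was not tested here, and the wider spread under iron moves with the lower number of calls.

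Whether the organ difference itself differed between the varieties was tested in the 12 control libraries. Of 27563 genes, the leaf over root difference was greater in Lachit for 3259 (11.8%) and smaller for 2340 (8.49%), by edgeR's quasi-likelihood test of the interaction, with the same adjustment and limit. With all 23 libraries in the fit these numbers were 1508 and 1396, and at a minimum log2 difference of 1 they were 811 and 471. Most of these were differences of degree. For 3017 of the 5599 genes the organs differed in the same direction in both varieties, with the wider gap in Lachit for 1346 and in Hacha for 1671. The direction was opposite for 414 genes, 271 of them leaf genes in Lachit and 143 root genes in Lachit. Another 597 were higher and 395 lower in leaf in Lachit with no call in Hacha, while 492 were higher and 602 lower in leaf in Hacha with no call in Lachit. Of the 295 organ-specific genes of Lachit 61 were called here, a share to be read against the 20.3% of all genes. Hacha leaf libraries varied more than those of Lachit, at a biological coefficient of variation of 26.1%.

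**Figure D4:**
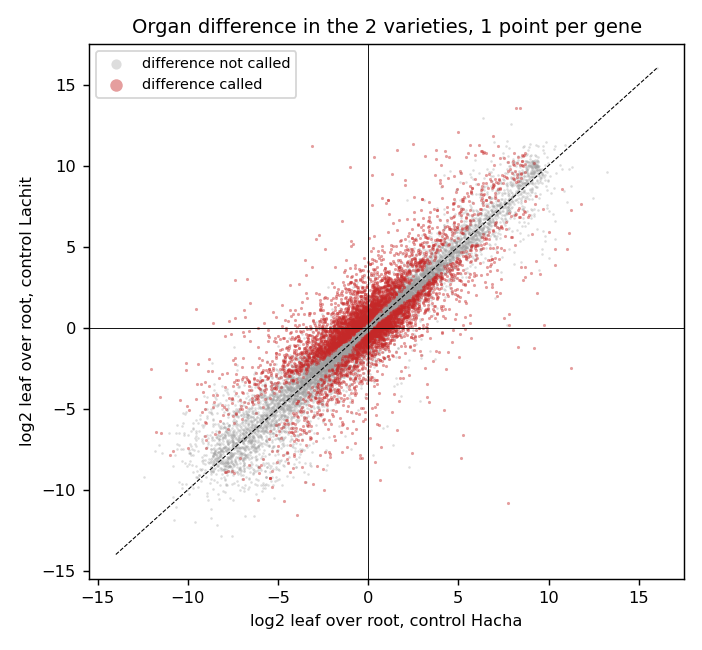
Log2 leaf over root in control Lachit (vertical) against the same in control Hacha (horizontal), 1 point per gene tested in both. Red points are genes whose organ difference was called different between the varieties and grey points are the others. The dashed line marks equal differences, and red points in the upper left and lower right have opposite organ directions.

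The largest differences among genes with at least 20 CPM in some group were found in genes measured mainly in 1 organ of 1 variety, or in opposite organs. OS01G0945600 on chromosome 1 had 19.2, 9.39 and 5.57 CPM in Lachit leaf and no count in Lachit root, so that leaf was at least 357-fold higher. In Hacha the order was reversed, with 3.08, 2.01 and 1.87 CPM in leaf and 19.9, 14.5 and 27.1 CPM in root, 8.88-fold higher in root (95% counting interval 7.48 to 10.6). The adjusted p of the difference was 5.21e-05. OS03G0830300 on chromosome 3 was a Hacha leaf gene, with 23.1, 33.9 and 29.1 CPM there, 3 counts in Hacha root, and no leaf count and 2 root counts in Lachit (adjusted p = 0.00379).

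OS06G0169001, described above as high in control Lachit root and low in iron-treated Lachit root, was low in control Hacha. It had 0.411 ± 0.22 CPM in leaf and 0.255 ± 0.14 CPM in root of Hacha (SD, n = 3), where the organs were not called different (adjusted p = 0.358). The difference between varieties was -10.05 on the log2 scale (SE 1.38, adjusted p = 0.000676). OS12G0247700 on chromosome 12 rests on uneven libraries, with 41.4, 227 and 16.9 CPM in Lachit leaf, 1 count in Lachit root, 2 counts in Hacha leaf and 10 in Hacha root. Its adjusted p was 0.0498. It was no longer called when any 1 of the 6 Hacha libraries or any 1 of the 3 Lachit root libraries was left out, with adjusted p from 0.0603 to 0.54.

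Leaf and root also used different transcripts of the same gene. Of 4145 genes with at least 2 transcripts that could be tested, 1526 differed in the proportions of their transcripts (36.8%), by the gene-level test of edgeR's diffSpliceDGE, Benjamini-Hochberg adjusted and with the limit at 0.05. Simes adjustment of the transcript tests called 547 genes. The number by the gene-level test fell to 998 without the first leaf library and to 997 without the second. The median of the largest change in a transcript's share was 15.8 percentage points, and 81 genes changed by 50 points or more. The transcript with the largest share was another one in leaf than in root for 208 of the 1526 genes. In level, 333 of the 1526 genes were not called between organs, a share close to that of all tested genes, of which 77.5% were called. The rule for similar levels was met by 418 of the 1526, and by 14.1% of all tested genes. Only genes with at least 2 transcripts that pass the count filter entered this test, so that share is not a like comparison.

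The 4 genes with the widest change of share were taken among the 1025 called genes with at least 20 CPM in both organs. In OS07G0605400 on chromosome 7, transcript -01 held 97.5%, 94.4% and 98.7% of the gene's TPM in the leaf libraries and 5.61%, 0% and 12.8% in the root libraries, where transcript -02 took its place (adjusted p = 0.000405). The gene as a whole stood at 167 ± 20 CPM in leaf and 36.1 ± 2.6 CPM in root (SD, n = 3). The leaf share of -01 was smaller in Hacha, at 63.3% ± 0.41, while its root share was 5.78% ± 2.9 (SD, n = 3).

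In OS06G0704600 on chromosome 6, transcript -02 held 79.5%, 79.5% and 75.5% of the gene's TPM in leaf, and transcript -01 held 100% in each root library (adjusted p = 1.25e-08). Hacha had the same pattern, with 83.3% ± 2.7 for -02 in leaf (SD, n = 3) and 100% for -01 in root. In OS11G0139500 on chromosome 11, transcript -03 held 77.8%, 80.6% and 84.5% in leaf, and transcript -02 held 79.3%, 75.9% and 78.6% in root (adjusted p = 2.07e-05). Hacha again followed, with 84.7% ± 2.9 for -03 in leaf and 73.1% ± 4.7 for -02 in root (SD, n = 3).

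OS02G0102400 on chromosome 2 did not keep its pattern across varieties. In Lachit, transcript -02 held 82.9%, 83.6% and 78.7% in leaf, and transcript -01 held 99.9% ± 0.19 in root (SD, n = 3; adjusted p = 1.49e-06). In Hacha, -02 held 63.0% ± 22 in leaf and 56.5% ± 7.6 in root (SD, n = 3), and its libraries overlapped between organs. Whether transcript use differs between the varieties was not tested. Shares of transcripts that share most of their sequence depend on how kallisto divided the reads, and that uncertainty is not in the test.

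**Figure D5:**
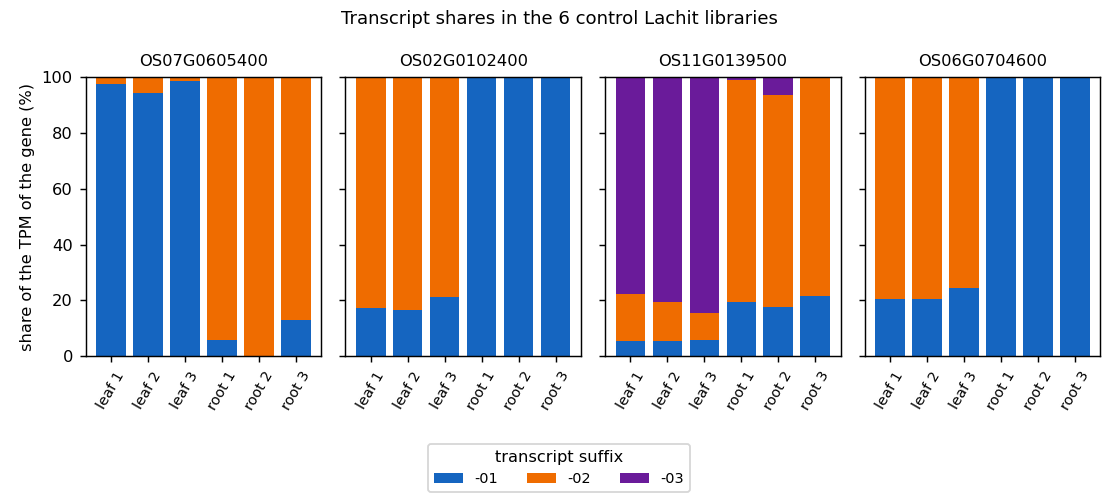
Share of each transcript in the TPM of its gene (%, vertical) in the 3 leaf and 3 root libraries of control Lachit, for the 4 genes with the widest change. Colours mark the transcript suffixes -01, -02 and -03. The leading transcript of leaf and the leading transcript of root are different in all 4 genes.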

How the data were processed

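Per the labels' protocols, RNA came from an RNeasy plant kit and libraries from version 2 of the TruSeq RNA kit, which keeps no strand information; a gene and its antisense partner cannot be told apart. Each library came as 1 table per library with an estimated count and a TPM value for every transcript. The authors' estimated counts and TPM were made with kallisto, according to the submitters' processing notes, which list IRGSP-1.0 as build and bcl2fastq as a further tool. Their versions and settings: not given in the sources used here. The deposited TPM are corrected for transcript length and scaled to the same total in each library; the estimated counts are not normalized. Transcript lengths are the authors' values. A deposited TPM table with 23 columns for single libraries was not used.

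Estimated counts of 42346 transcripts were summed to 35679 genes by identifier and rounded. Leaf and root were compared on the 6 libraries with edgeR's quasi-likelihood test (edgeR 4.0.16, R 4.3.3), robust dispersion, filterByExpr and TMM, and Benjamini-Hochberg adjustment over all genes tested. TMM factors were 1.278, 1.245 and 1.205 in root and 0.8272, 0.7992 and 0.789 in leaf. In the fit of iron-treated Lachit they were 1.081, 1.097 and 1.034 in root and 0.9299, 0.841 and 1.042 in leaf. Hacha and iron-treated Lachit were fitted in the same way on their own 6 libraries, the interaction on 12, and CPM come from the fit of the comparison they stand with. Folds against absent counts use a floor of 3 counts over a group. Intervals of count ratios are exact, at 95%, and like the floor leave out everything but counting error, as PCR copies were not marked. Alternatives were RLE factors, library totals, no filter, DESeq2 1.42.0, other sets of libraries, length offsets, a minimum log2 difference of 1, limma 3.58.1 on log2(TPM + 1) and log2(TPM + 0.1), and each library left out in turn. The scripts were tested on simulated data. The chi-square per gene between replicates was 12.2 to 32.5, a scatter beyond counting error, so all were counted as separate libraries. It cannot tell separate plants from repeated preparation of the same material.

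A RefSeq table of assembly ASM3414082v1 matched 1 of the 35679 identifiers and gave it no usable symbol, so the gene lists and cell type markers that were planned could not be filled, and sequences are not printed. The chromosome is the one the identifier carries. The genes described are, for each comparison, the 2 most extreme in each direction (largest difference at 100 CPM or more, most abundant, organ-specific by TPM, or difference between varieties at 20 CPM or more), the 2 most abundant similar genes and 4 for transcript use. The comparison, lists and rules were chosen with earlier results of these data known.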

Additional observations from a re-analysis of the deposited data

Results flagged for a closer look

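The organ difference was not the same in both varieties. The interaction test of edgeR over 27563 genes called 3259 genes with a greater and 2340 with a smaller leaf over root difference in Lachit than in Hacha, after Benjamini-Hochberg adjustment. Without the first Hacha leaf library these numbers were 3733 and 3275, and with all 23 libraries in the fit they were 1508 and 1396. A minimum log2 difference of 1 left 811 and 471. Among the genes described, the adjusted p of the difference was 5.21e-05 for OS01G0945600, a leaf gene in Lachit and a root gene in Hacha. It was 0.00379 for OS03G0830300, which was measured in Hacha leaf and hardly anywhere else in the control plants. It was 0.000676 for OS06G0169001, a gene of control Lachit root with few counts in either organ of control Hacha. It was 0.0498 for OS12G0247700, whose 3 Lachit leaf libraries differed widely and whose call was lost in 9 of the 12 fits that left out 1 library.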

How the results depend on the processing

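No paired analysis was possible because running numbers in the titles differ for all libraries, so leaf and root share no replicate number. Other scalings and left-out libraries were not run for gene lists, since no list could be filled. Under RLE factors, no filter, DESeq2, length offsets and 12 or 23 libraries in the fit, the numbers of genes higher and lower in leaf stayed within 1.5 times those reported. A minimum log2 difference of 1 left 5636 higher and 6164 lower in leaf. The number higher in leaf was 6322 with library totals, 6248 with limma on log2(TPM + 1) and 6206 with log2(TPM + 0.1); the limma fits change unit, filter, scale and test together. OS02G0216300 turned to -0.4 with library totals and to -0.57 with limma at either pseudocount. The values of the 13 genes described for leaf against root kept direction and call in 123 of 130 settings and in all 78 fits without 1 library. The exceptions are OS02G0216300 and OS02G0519900, which other settings called lower in leaf. The rest were chosen from these same data for wide differences, high abundance or organ-specific levels. That they kept direction and call was thus nearly fixed in advance and is no support. Without 1 library the counts ran from 8987 to 9614 higher and from 10093 to 10510 lower in leaf.

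Between varieties, the numbers greater and smaller in Lachit were 1508 and 1396 with 23 libraries in the fit, and 811 and 471 at a minimum log2 difference of 1. Without 1 library they ran from 2394 to 3733 and from 1689 to 3275. OS12G0247700 was not called with RLE (adjusted p = 0.0566), without a filter (0.0754) or at a minimum log2 difference of 1 (0.145). Its adjusted p over all its alternatives ran from 6.66e-06 to 0.54.

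Organ-specific lists depend on their limits. The leaf list held 403 genes at 1 CPM, 50 at 20 CPM, 614 with 0.5 CPM allowed in root and 36 with no count allowed. The root list held 580, 7, 635 and 16 genes in the same order, and 254 with TPM, where the leaf list held 123, so that the root list became the longer. Without 1 library the lists held 174 to 234 and 112 to 233 genes. Similar genes numbered 8130 with a margin of 2-fold, 2267 with library totals and 2883 to 3807 without 1 library. Transcript use was called for 547 genes with Simes adjustment, for 1195 of 2366 with the rule on shares, and for 997 to 1397 without 1 library. The most abundant genes held 29.1% of leaf and 17.3% of root counts when 100 were taken, and 19.2% and 12.4% of TPM when 20 were taken. Without 1 library the shares of 20 genes were 14.3% to 14.9% and 7.17% to 7.68%. A level of 0.1 CPM is at most a few counts in these libraries, and fewest in the third leaf library. The causes of these shifts were not tested.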
